A study of Rattus norvegicus with 18 samples.

Results

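The 7 genes Fos, Fosl1, Jun, Junb, Egr1, Nr4a1 and Cebpb encode transcription factors of the immediate early response. They were followed through every probe set whose platform annotation gives 1 of these symbols, which were 14 of the 1263 non-control probe sets on the array and 7 of the 720 genes with a symbol of their own. Egr1 had 4 probe sets, Fos 3, Nr4a1 and Cebpb 2 each, and Fosl1, Jun and Junb 1 each. All 14 were bright enough to pass the filter on low signals, which kept 1027 probe sets for testing. The rule that picks the probe sets uses no measured value, but the genes themselves were chosen with earlier results of these data known. Probe sets of 1 gene measure the same transcript in the same RNA and are not independent of each other.

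The study asked how rat cortical type-I astrocytes change when they grow on the toxic fragment of beta-amyloid, the peptide that accumulates in plaques of Alzheimer's disease. Total RNA was measured on 18 arrays of 1322 probe sets. In the 12 exposed samples the cells grew on an immobilized peptide of residues 25 to 35, and they were taken at 12 hours or after 1, 3 or 5 days, with 3 arrays per time. The 6 control arrays came from cells on laminin and nitrocellulose with no peptide, and their labels name no time in culture. The source of controls 1 and 2 is given as cerebral cortex, with astrocytes in their titles, and that of the other 16 as type-I astrocytes. All samples are rat cells without a genetic change in the labels, and neither the age of the animals nor the number of cultures is given in the sources used here. P-values therefore measure only how far these samples scatter, which may be technical scatter, and the number of arrays limits the precision.

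Immediate early genes are switched on within minutes of a stimulus by factors already present in the cell, without new protein synthesis, and their transcripts are short-lived. Kinases of the MAP kinase and cyclic AMP or calcium routes act on factors bound to serum response elements and cyclic AMP response elements (CRE) in their promoters. Fos and Fosl1 proteins pair with Jun or Junb to form AP-1, Egr1 is a zinc finger factor, Nr4a1 (also called Nur77) is an orphan nuclear receptor, and Cebpb is a leucine zipper factor of inflammatory and acute phase genes. In astrocytes such genes respond to growth factors, cytokines and injury.

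The promoters of Egr1 and Cebpb, whose signals were higher at 12 hours, and of Nr4a1, whose signals were highest at 5 days, are shown as examples. Whether the elements marked in them bear on these signals was not tested. Each is the plus strand of the 250 bases before the annotated start, from RefSeq on build GRCr8, at chr18:26736828-26737077 for Egr1, chr3:176816755-176817004 for Cebpb and chr7:134259888-134260137 for Nr4a1. Capitals mark matches, on either strand, to the short CRE (TGACG), the serum response element core, the EGR site (GCGNGGGCG) and the TATA box (TATAAA).
Egr1: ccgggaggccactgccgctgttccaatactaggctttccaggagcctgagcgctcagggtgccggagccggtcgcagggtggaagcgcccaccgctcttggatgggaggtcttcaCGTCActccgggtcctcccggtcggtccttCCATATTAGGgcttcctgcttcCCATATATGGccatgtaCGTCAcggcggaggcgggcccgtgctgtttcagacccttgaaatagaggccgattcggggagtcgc
Cebpb: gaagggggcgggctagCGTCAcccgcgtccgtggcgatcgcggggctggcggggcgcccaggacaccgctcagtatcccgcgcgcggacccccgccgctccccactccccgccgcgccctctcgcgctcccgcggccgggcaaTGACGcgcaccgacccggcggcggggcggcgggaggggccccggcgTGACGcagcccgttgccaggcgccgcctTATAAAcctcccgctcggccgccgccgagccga
Nr4a1: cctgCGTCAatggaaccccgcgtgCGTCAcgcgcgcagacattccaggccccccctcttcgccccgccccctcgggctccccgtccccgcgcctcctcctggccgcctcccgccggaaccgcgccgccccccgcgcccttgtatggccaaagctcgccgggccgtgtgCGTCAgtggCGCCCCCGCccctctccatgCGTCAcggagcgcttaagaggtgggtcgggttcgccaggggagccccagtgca
The Egr1 window held 2 serum response element cores, 105 to 96 and 83 to 74 bases before the start, and 2 short CREs. The Cebpb window held 3 short CREs and a TATA box, and the Nr4a1 window held 4 short CREs and 1 EGR site. Promoters of Fosl1 and Junb, also in the table, held 2 and 1 short CREs, and Junb a TATA box. Over 33469 promoters of this length, 18.22% held a short CRE, 1.497% a serum response element core, 4.291% the EGR site and 12.93% the TATA box. The full CRE (TGACGTCA, which holds the short one) was in 1.587% of them and the AP-1 site (TGANTCA) in 6.34%, and neither was in these 5 windows. A match is a run of letters and not a measured binding site.

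On the array as a whole, the mean signal of an array, trimmed of its extreme 2% at each end, was 502.067 to 502.632, so the deposited signals were already scaled. The arrays fell into 2 clusters by correlation over all probe sets, and cluster 1 held every 12 hours array, controls 1 and 2, and the third array of the 1 day and of the 3 days group. Over the 14 probe sets, control 1 lay on average 0.14 log2 units from the 12 hours mean and 1.31 from the mean of the other controls. It was nearer to the 12 hours mean for 13 of 14 probe sets, against 0 to 3 for each other control, and over all tested probe sets its distances were 0.35 and 0.76. Control 3 lay 1.00 from the mean of the other controls and 0.54 from the 3 days mean over the 14 probe sets. Over all tested probe sets these distances of control 3 were 0.56 and 0.49. 1 day array 3 lay 1.48 from the other 1 day arrays and 0.60 from the controls over the 14 probe sets. Over all tested probe sets it lay 0.83 from the other 1 day arrays and 0.66 from the controls, and nearest, at 0.59, to the 12 hours mean. Comparisons that rest on control 1 or on 1 day array 3 are given with and without them. Control 1 and 1 day array 3 stood out on these same probe sets, so p-values without them are no independent support. Marker sums took the brightest probe set of each gene, so bright genes weigh most. Of 16 astrocyte marker genes 10 were on the array, with summed signals of 29415.7 to 43511.9 in controls, 42706 to 44250.9 at 12 hours, 35658.8 to 44734.8 at 1 day, 32157.2 to 34733 at 3 days and 47233.3 to 49309.9 at 5 days. The 11 neuronal markers summed to 3663 to 6319.7 in controls and 3513 to 3716.5 at 12 hours. They summed to 5104.2 to 5361.8 at 1 day, 4041.7 to 5969.2 at 3 days and 4991.3 to 5334.2 at 5 days. The 2 fibroblast and vascular markers, Igf2 and Pdgfrb, summed to 644.1 to 8633.3 in controls and 3562.4 to 3748.6 at 12 hours. Their sums were 871 to 7825.3 at 1 day, 854.1 to 9282.7 at 3 days and 491.4 to 692.6 at 5 days. The Igf2 probe set in these sums, X17012mRNA_s_at, ran from 211.2 to 8743.8, while Igf2 M17960_g_at ran from 318.2 to 528.9. The only microglial marker on the array, Itgam, had signals of 22.3 to 77. The 6 oligodendrocyte lineage markers summed to 1104.9 to 1977, with Sox10 under the filter level on all arrays. In such bulk RNA, fewer cells of a type and less RNA per cell cannot be told apart, and the part of these markers in the results below was not tested.

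**Figure D1:**
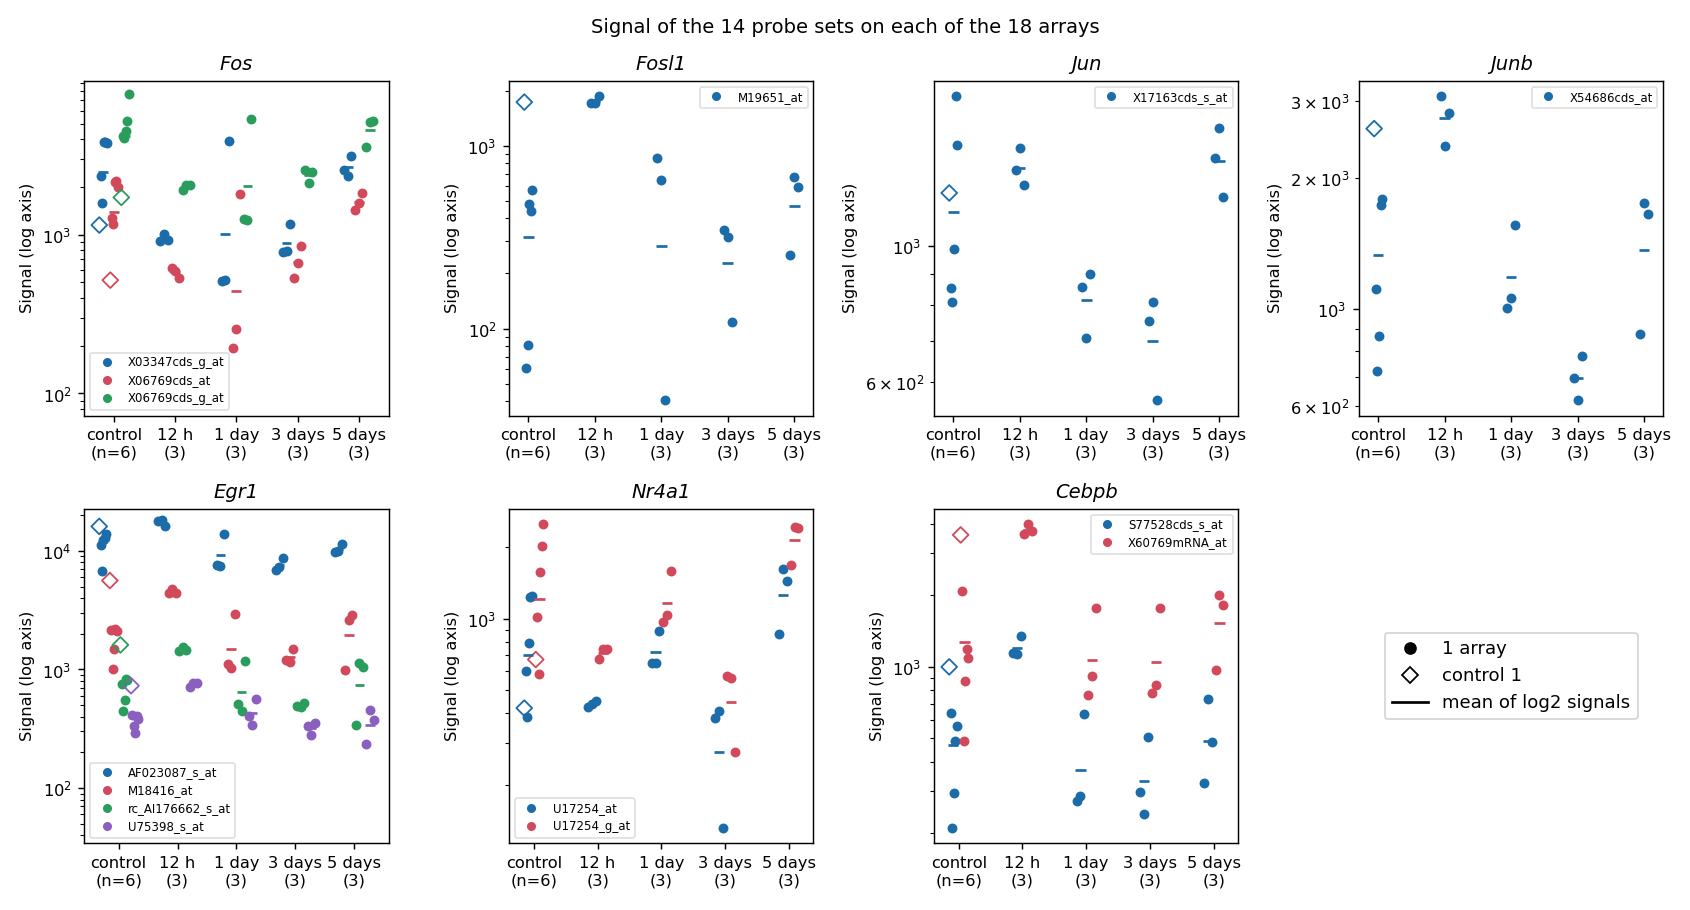
Signal of each probe set on a log axis, by group; each point is 1 array, the open diamond is control 1 and the bar is the mean of the log2 signals. The 3 arrays at 12 hours lie close together, with Fosl1 at 1707.8 to 1864.3, and control 1 lies among or beside them for Fosl1, Junb, Egr1 and Cebpb.

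Cebpb had its highest signals at 12 hours on both probe sets. Probe set X60769mRNA_at had 3620.0, 3985.0 and 3731.8 at 12 hours, against a lowest of 488.6, a median of 1140.6 and a highest of 3583.9 in the 6 controls. The highest control was control 1, and the next was control 2 with 2078.9. Probe set S77528cds_s_at had 1139.9, 1128.3 and 1353.9 at 12 hours and 209.8, 527.05 and 999.5 as lowest, median and highest control. Every 12 hours array thus lay above every control on both. The differences were 1.58 ± 0.50 (SE) and 1.35 ± 0.44 on the log2 scale, 2.98-fold and 2.55-fold, with limma adjusted p-values of 0.103 for both. At later times Cebpb was back among the controls. X60769mRNA_at had 758.5, 911.7 and 1764.7 at 1 day, 777.5, 837.6 and 1772.0 at 3 days, and 969.2, 2003.1 and 1825.1 at 5 days, and the third array at 1 day and at 3 days, both in cluster 1, was the high one of its group.

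Egr1 had a similar order of groups. Probe set AF023087_s_at had 17859.5, 18223.8 and 16295.1 at 12 hours, and its controls ran from 6751.4 to 16073.2 with a median of 12624.95. On M18416_at the 12 hours signals were 4394.8, 4735.4 and 4439.9, and the controls ran from 1010.8 to 5618.7 with a median of 2137.95. On rc_AI176662_s_at they were 1434.3, 1558.8 and 1472.1, against 444.7 to 1610.9 with a median of 778.9 in controls. On the first of these no control reached the 12 hours arrays, and on the next 2 the overlap was with control 1 alone, which had the highest signal of any array. Probe set U75398_s_at had 714.3, 765.6 and 772.6 at 12 hours, and control 1 had 729.7 while the other 5 controls had 291.2 to 410.5. The 4 differences from control were 0.56 ± 0.25, 1.11 ± 0.47, 0.96 ± 0.42 and 0.88 ± 0.27 (SE, log2) with limma adjusted p-values of 0.0998 to 0.149.

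At 1 day the Egr1 probe set AF023087_s_at had 7590.6, 7506.0 and 13778.8, and at 3 days 6951.3, 7358.7 and 8670.2. At 5 days it had 9709.6, 10020.5 and 11469.1. The 3 days group was the lowest of the 5 on all 4 Egr1 probe sets, and 1 day array 3 was again far above its 2 partners. On M18416_at and rc_AI176662_s_at the 5 days arrays did not move together, since array 1 had 991.9 and 340.7 while arrays 2 and 3 had 2623.7 and 2871.5, and 1137.7 and 1041.6.

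Among the AP-1 subunits, Junb and Fosl1 were highest at 12 hours, Jun was not apart from control at any time, and Fos was low at 12 hours. Junb, a Jun family member that often opposes Jun in AP-1, had 3070.3, 2358.1 and 2815.1 at 12 hours. Its controls ran from 721.8 to 2588.5 with a median of 1420.5, and control 1 was the only one above 1782.3. The difference was 1.04 ± 0.35 (SE, log2), 2.05-fold, with a limma adjusted p of 0.109. Junb then had 1005.1, 1060.2 and 1559.1 at 1 day, its lowest signals of 693.9, 617.1 and 778.9 at 3 days, and 876.8, 1748.6 and 1652.6 at 5 days. All 3 days arrays lay below all 1 day and all 5 days arrays.

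Fosl1, the Fos family member Fra-1, had the widest spread. It had 1707.8, 1715.0 and 1864.3 at 12 hours. The 6 controls had 1731.9, 61.1, 81.1, 478.0, 437.6 and 574.8 in order of their numbers. At 1 day the signals were 856.2, 650.5 and 40.4, at 3 days 346.7, 317.7 and 108.1, and at 5 days 254.0, 672.0 and 591.6. Controls 2 and 3 and the third array at 1 day and at 3 days were low, and control 1 and the 12 hours arrays were high. Both low and high arrays lie in cluster 1, and control 3 lies in cluster 2. The difference at 12 hours was 2.47 ± 1.02 (SE, log2), 5.54-fold, with a limma adjusted p of 0.137 and a 95% interval of 0.27 to 4.67.

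Jun, the subunit that pairs with Fos in classical AP-1, had 1330.2, 1444.6 and 1253.8 at 12 hours, inside the control range of 808.8 to 1752.8. Its difference was 0.24 ± 0.24 (SE, log2) with a limma adjusted p of 0.496 and a 95% interval of -0.27 to 0.75, so a fold as large as that of Junb lies outside this interval. Jun was lowest at 3 days, with 754.2, 809.0 and 559.0, and had 1389.0, 1558.0 and 1198.9 at 5 days, with no overlap between these 2 groups.

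Fos, the partner of Jun in classical AP-1, went the opposite way at 12 hours on all 3 probe sets. X03347cds_g_at had 917.3, 1016.1 and 920.6, below every control, which ran from 1149.5 to 3846.7 with a median of 3054.3. X06769cds_at had 620.1, 587.9 and 535.3 against 517.2 to 2182.4 with a median of 1636.85, and X06769cds_g_at had 1903.2, 2067.5 and 2056.4 against 1716.2 to 7713.2 with a median of 4345.8. On the last 2 only control 1 was as low as the 12 hours arrays. The differences were -1.39 ± 0.55, -1.26 ± 0.57 and -1.05 ± 0.45 (SE, log2), or 2.61-fold, 2.40-fold and 2.08-fold lower, with limma adjusted p-values of 0.124, 0.155 and 0.142.

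At 1 day the 3 arrays disagreed about Fos. X03347cds_g_at had 508.4, 517.7 and 3866.2, X06769cds_at 193.6, 253.0 and 1795.7, and X06769cds_g_at 1258.2, 1236.2 and 5345.0. Arrays 1 and 2 lay below all 6 controls on all 3 probe sets, and array 3 lay inside the control range on both X06769 probe sets and just above the highest control on X03347cds_g_at. At 3 days X03347cds_g_at had 772.9, 786.3 and 1164.9, and at 5 days 2569.2, 2353.2 and 3139.5. Every 5 days array lay above every 3 days and every 12 hours array on all 3 Fos probe sets, while the 5 days differences from control were 0.10 to 0.20.

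Nr4a1 was lowest at 3 days and highest at 5 days. Probe set U17254_at had 426.7, 436.8 and 451.4 at 12 hours, 652.9, 648.8 and 890.4 at 1 day, 381.6, 408.6 and 131.3 at 3 days, and 857.7, 1612.1 and 1437.2 at 5 days. Probe set U17254_g_at had 674.3, 742.1 and 746.6 at 12 hours, 965.8, 1034.8 and 1582.2 at 1 day, 572.7, 561.1 and 273.7 at 3 days, and 1681.6, 2440.3 and 2396.2 at 5 days. The controls ran from 385 to 1240.7 and from 584.7 to 2502.5, with controls 1, 2 and 3 in the lower part and controls 4, 5 and 6 in the upper part of both ranges. The 5 days arrays lay above all 3 days and all 12 hours arrays, and the 3 days arrays lay below all 1 day arrays. On U17254_g_at all 3 days arrays lay below all controls, with a difference of -1.45 ± 0.42 (SE, log2) and a limma adjusted p of 0.877.

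**Figure D2:**
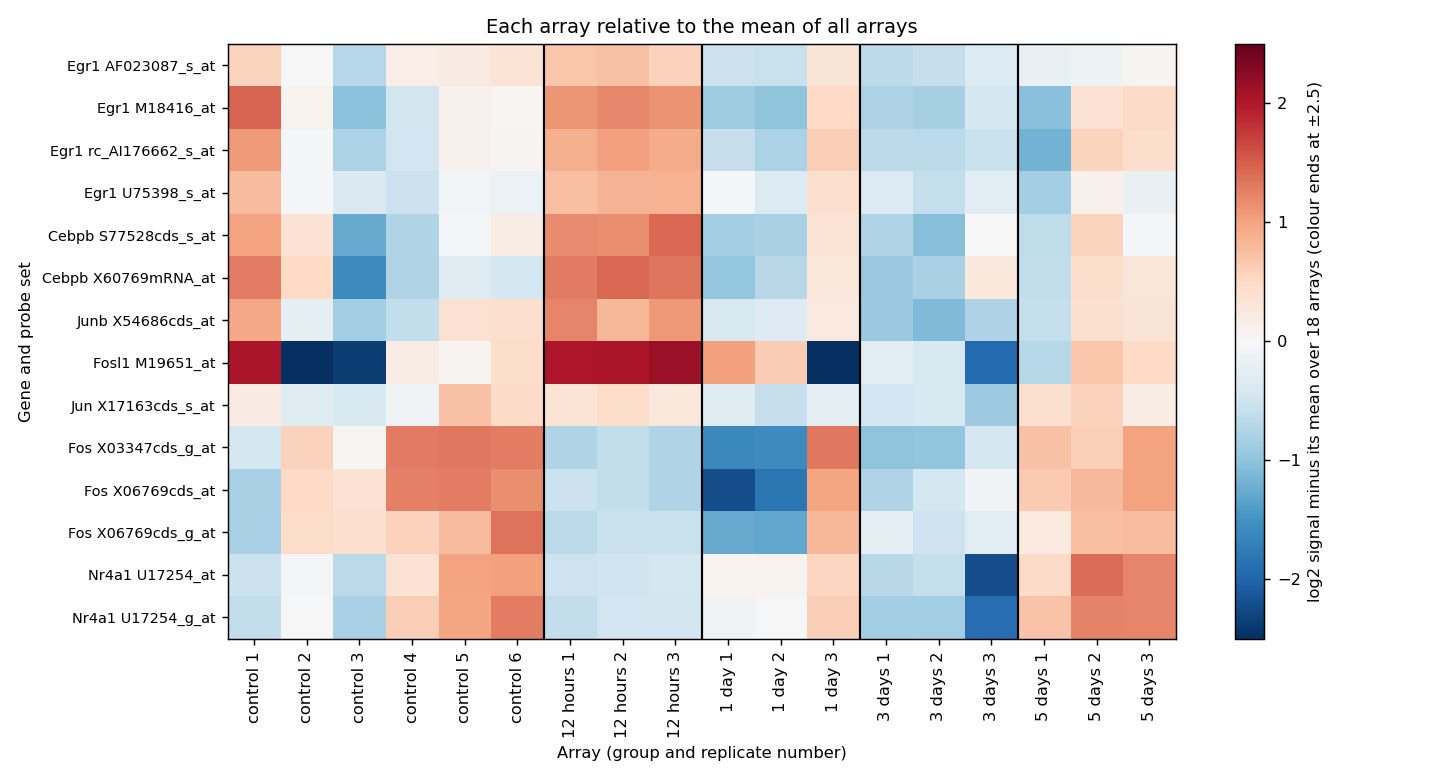
Log2 signal of each probe set on each array minus its mean over the 18 arrays, with red for higher and blue for lower and groups divided by lines. Control 1 has the pattern of the 12 hours arrays, and 1 day array 3 is red for Fos where its partners are blue (3866.2 against 508.4 and 517.7 on X03347cds_g_at).

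By limma over all probe sets, with p-values adjusted by Benjamini-Hochberg and a threshold of 0.05, 0 of the 14 probe sets passed at 12 hours against control, while 1.66% of all tested probe sets did. At an unadjusted p under 0.05 there were 11 of 14, and 301 of 1027. On 3 of the 14 all 12 hours arrays lay above all controls and on 1 they lay below, and over all tested probe sets these shares were 5.36% and 9.83%. The 14 differences had a median of 0.72, with 9 above 0 and 5 below, and the median over all tested probe sets was -0.18. Quantile normalization, median centring and cyclic loess took that median to between -0.04 and 0.02 and changed the sign of none of the 14 differences.

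The comparison at 12 hours turned on control 1. This array stood out on these same 14 probe sets, so leaving it out enlarges most differences by construction. Without it 9 of the 14 probe sets passed, 7 higher and 2 lower, while the share over all probe sets went from 1.66% to 20.5%. Cebpb rose by 1.88 and 1.57 (limma adjusted p 0.0126 and 0.022), Junb by 1.23 (0.0216), Fosl1 by 2.96 (0.0426) and 3 Egr1 probe sets by 1.05 to 1.39 (0.0101 to 0.0447). Fos fell by 1.61 on X03347cds_g_at and 1.31 on X06769cds_g_at (0.0464 and 0.0324), and on X06769cds_at the difference was -1.55 with 0.0532. Without controls 1 and 2, the pair with the other source label, 9 passed, 6 higher and 3 lower, and 31.3% of all probe sets passed. All 3 Fos probe sets fell then, and Fosl1 missed the threshold (2.49, limma adjusted p 0.0598). With the 2 array clusters as a block, or within cluster 1, where the controls are controls 1 and 2, 0 of the 14 passed. With that block the differences were 0.65 and 0.62 for Cebpb, 0.72 for Junb, 3.42 for Fosl1, 0.28 to 0.53 for Egr1 and -1.67 to -1.10 for Fos. Cluster 2 held no 12 hours array.

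**Figure D3:**
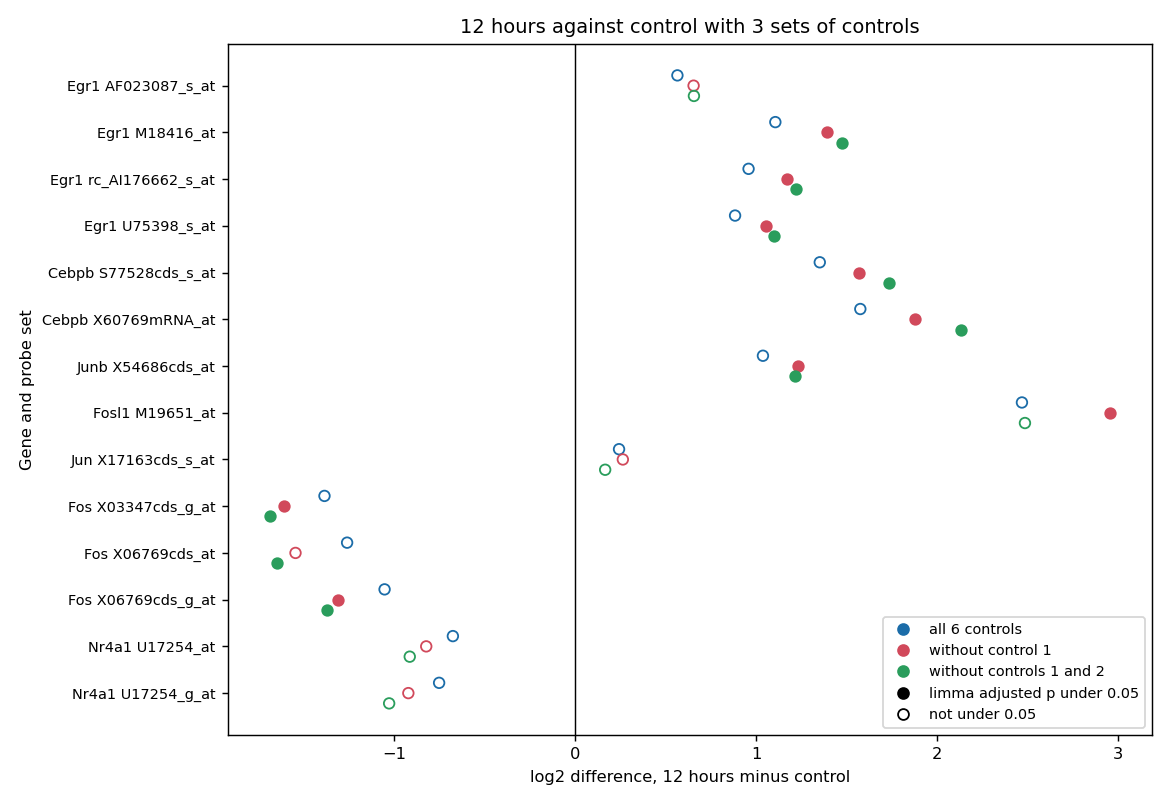
Log2 difference of 12 hours minus control for each probe set with all 6 controls, without control 1 and without controls 1 and 2; a filled point has a limma adjusted p under 0.05. No point is filled with all 6 controls and 9 are filled in each of the other series, with every sign unchanged.

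At 1 day against control 0 of the 14 passed by limma and 3 had an unadjusted p under 0.05, the 3 Fos probe sets, against 120 of all 1027. Over all probe sets 0.292% passed. Fos had differences of -1.30 ± 0.55, -1.64 ± 0.57 and -1.04 ± 0.45 (SE, log2) with limma adjusted p-values of 0.389, 0.337 and 0.397. None of the 14 had arrays apart from all controls, and over all probe sets the shares were 0.974% higher and 0.974% lower. Of the 1 day arrays, array 3 alone had high Fos, so leaving it out deepens the fall of Fos by construction. Without it 2.53% of all probe sets passed. The 3 Fos probe sets then had differences of -2.28, -2.65 and -1.74 (limma adjusted p 0.00721, 0.00434 and 0.0299). Within cluster 2, which holds 1 day arrays 1 and 2 and controls 3 to 6, they had -2.58, -3.04 and -2.06, all past the threshold, where 12% of all probe sets passed. Within cluster 1, which rests on 1 day array 3 and controls 1 and 2, the differences were 1.24, 1.15 and 1.00, so the direction of Fos at 1 day depends on the array. The other 11 probe sets had differences of -0.49 to 0.07.

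At 3 days all 14 differences from control were below 0, with a median of -0.71 against 0.02 over all probe sets, and 0 of 14 passed by limma. Over all probe sets 0% passed, and 6 of the 14 and 47 of the 1027 had an unadjusted p under 0.05. The most negative were Fos X03347cds_g_at with -1.48 ± 0.55 and Nr4a1 with -1.45 ± 0.42 and -1.36 ± 0.42 (SE, log2). Junb had -0.94 ± 0.35 and Jun -0.70 ± 0.24, and the limma adjusted p-values of these 5 were 0.877. The 2 other Fos probe sets had -1.05 and -0.81, the Egr1 probe sets -0.72 to -0.34, Fosl1 -0.48 and Cebpb -0.51 and -0.27. Leaving out each array in turn, among them control 3, which lay near the 3 days mean, also called 0 of the 14. Nr4a1 U17254_g_at alone lay below all controls, where the shares over all probe sets were 0.584% above and 0.974% below. Within cluster 2, which leaves out controls 1 and 2 and 3 days array 3, Fos fell on X03347cds_g_at and X06769cds_at by 1.97 and 1.61, each with a limma adjusted p of 0.0485, and 0.584% of all probe sets passed.

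At 5 days the 14 probe sets lay around the controls, with a median difference of 0.12 and 10 above 0, where values near 0 for Junb and 2 Egr1 probe sets changed sign with the scaling. By limma 0 of 14 and 0% of all probe sets passed, and 0 of the 14 and 94 of the 1027 had an unadjusted p under 0.05. Arrays were apart from all controls for 0 of the 14, and for 2.14% of all probe sets on the higher side and 3.21% on the lower. Nr4a1 had the largest differences, 0.84 ± 0.42 and 0.82 ± 0.42 (SE, log2) with limma adjusted p-values of 0.520. With the replicate numbers as a block Nr4a1 U17254_g_at rose by 1.54 with a limma adjusted p of 0.0308. This was 1 of 14, in a fit where 5.94% of all probe sets passed. Replicate numbers 4 to 6 occur only among controls, so that fit sets the 5 days arrays against controls 1 to 3 alone. These had 672.9, 1017.2 and 584.7 on this probe set, against 1570.4, 2029.3 and 2502.5 in controls 4 to 6. The 4 comparisons with control share the 6 control arrays.

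**Figure D4:**
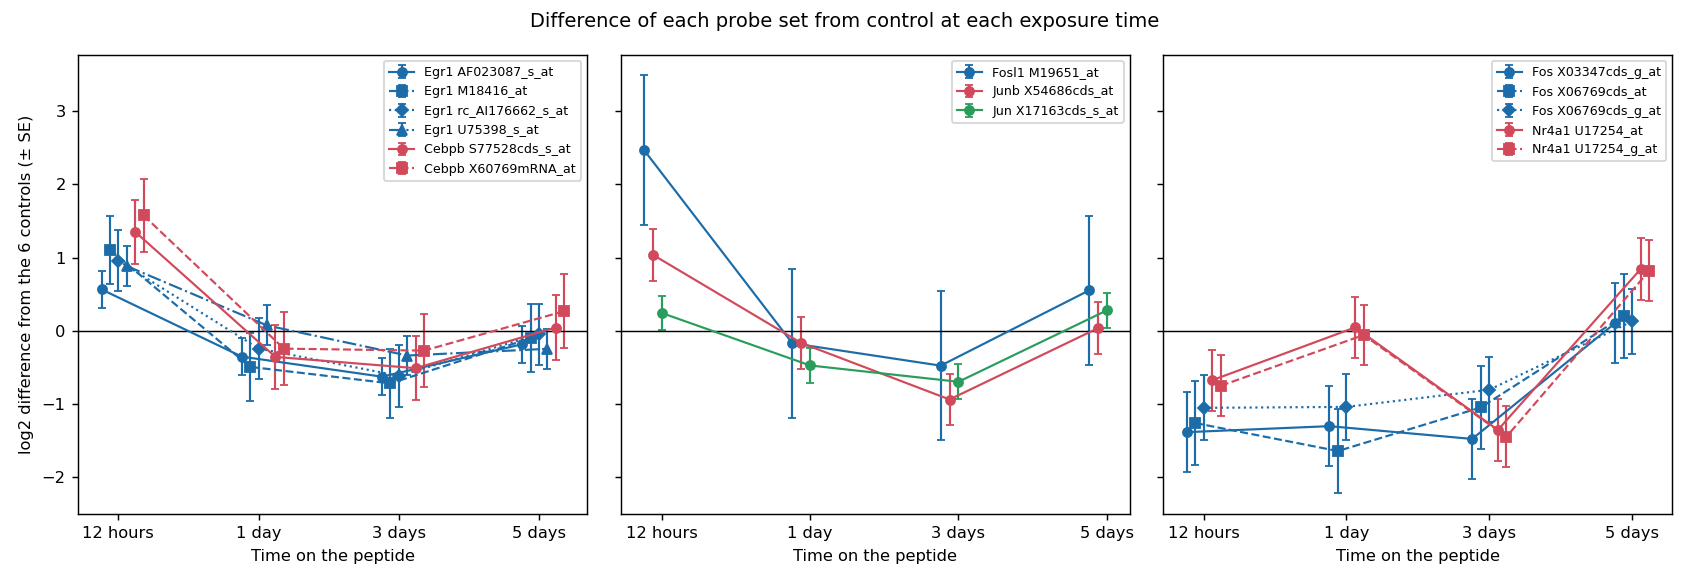
Log2 difference of each probe set from the 6 controls at each exposure time, with bars of 1 SE from the limma fit; the times are evenly spaced on the axis and points are moved sideways for clarity. Egr1, Cebpb, Junb and Fosl1 are above 0 at 12 hours, Fos and Nr4a1 are below it, and all 14 are below 0 at 3 days.

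Between exposure times, where the control arrays enter only through the shared spread, the 14 probe sets differed most between 12 hours and 5 days. Nr4a1, which is itself an early target of the calcium and cyclic AMP routes, rose from 12 hours to 5 days by 1.52 ± 0.48 and 1.57 ± 0.48 (SE, log2), 2.87-fold and 2.97-fold, with limma adjusted p-values of 0.0459 and 0.0446. Egr1 fell on U75398_s_at by 1.13 ± 0.32 (SE, log2), 2.19-fold, with 0.0391. These were 3 of 14, a share close to the 16.5% of all probe sets that passed in this comparison. Leaving out any 1 of the 6 arrays of these 2 times ended all 3 calls, with differences that stayed between 1.34 and 1.80 for U17254_at, 1.48 and 1.75 for U17254_g_at, and -1.34 and -0.86 for U75398_s_at over all 18 fits without 1 array. Without 1 day arrays 1 or 2 or 3 days array 2 both Nr4a1 calls were lost, and without 3 days array 1 that of U17254_at. The smallest and largest limma adjusted p-values over these fits were 0.0258 and 0.133 for U17254_at, 0.0286 and 0.124 for U17254_g_at, and 0.0123 and 0.107 for Egr1 U75398_s_at. With the replicate number as a block Egr1 U75398_s_at had 0.0523, and both Nr4a1 probe sets passed with 0.0348 and 0.0140, and so did 14.8% of all probe sets. With no filter on low signals both Nr4a1 probe sets missed the threshold (0.0576 and 0.0549), and U17254_at also did after quantile normalization (0.0645) and median centring (0.0519). All 5 Fos and Nr4a1 probe sets were apart on the higher side and 8 were apart on the lower side, namely Fosl1, Junb, 4 of Egr1 and 2 of Cebpb. Over all probe sets the shares were 26.7% and 27.1%. The other Egr1 probe sets had -1.21 to -0.75 (limma adjusted p 0.0875 to 0.164) and were not called. Fos had 1.18 to 1.49 (limma adjusted p 0.116 to 0.139), Cebpb -1.31 on both (0.0875 and 0.131), Junb a 2.0-fold lower mean (0.101), Fosl1 -1.92 ± 1.18 (0.279) and Jun 0.04, which turned below 0 after median centring. With the 2 clusters as a block none of the 14 passed. Nr4a1 had 0.88 and 1.06 and Egr1 U75398_s_at -0.60, with limma adjusted p-values of 0.481, 0.404 and 0.405, and Cebpb X60769mRNA_at had 0.08. All 12 hours arrays lie in cluster 1 and all 5 days arrays in cluster 2, so that fit reaches this comparison only through the other groups. The 3' to 5' signal ratio of Gapdh, a measure of RNA integrity, was 1.06 to 1.11 at 12 hours and 1.16 to 1.28 at 5 days, inside the 0.955 to 1.33 of the controls. With this ratio as a covariate none of the 14 passed, with 1.44, 1.48 and -1.21 for the same 3 probe sets (0.160, 0.153 and 0.112), and its part in the result was not tested further.

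From 12 hours to 1 day 0 of 14 and 0% of all probe sets passed by limma, and 9 of the 14 and 150 of the 1027 had an unadjusted p under 0.05. These 9 were Fosl1, Jun, Junb, the 4 of Egr1 and the 2 of Cebpb, and on all 9 every 1 day array lay below every 12 hours array, while on both Nr4a1 probe sets they lay above. The shares over all probe sets were 13.7% below and 20.2% above. Cebpb had -1.71 ± 0.51 and -1.82 ± 0.58, Egr1 -1.60 to -0.81, Junb -1.21 ± 0.41 and Jun -0.72 ± 0.27 (SE, log2), with limma adjusted p-values of 0.156 to 0.275. Without 1 day array 3, Egr1 AF023087_s_at fell by 1.21 with a limma adjusted p of 0.0406, 1 of 14 where 2.34% of all probe sets passed.

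From 1 day to 3 days 0 of 14 passed by limma and 0.0974% of all probe sets did. An unadjusted p under 0.05 was found for 2 of the 14, both of Nr4a1, and 86 of the 1027. Both Nr4a1 probe sets, with -1.40 ± 0.48 and -1.39 ± 0.48 (SE, log2, limma adjusted p 0.430), and Junb, with -0.77 ± 0.41 (0.607), had every 3 days array below every 1 day array, against 4.87% of all probe sets, and 6.43% were apart on the higher side. Within cluster 2 Fos X06769cds_at rose by 1.43 (limma adjusted p 0.0422), 1 of 14 where 3.7% of all probe sets passed.

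From 3 days to 5 days all 14 differences were above 0, with a median of 0.96 against -0.17 over all probe sets. Nr4a1 had 2.20 ± 0.48 and 2.27 ± 0.48 (SE, log2), 4.60-fold and 4.82-fold, with limma adjusted p-values of 0.0564 and 0.0514, just short of the threshold. Jun had 0.98 ± 0.27 (0.146), Junb 0.98 ± 0.41 (0.355) and Fos 0.94 to 1.58 (0.347 to 0.483). By limma 0 of 14 and 0.292% of all probe sets passed, and 5 of the 14 and 118 of the 1027 had an unadjusted p under 0.05. On 8 of the 14 every 5 days array lay above every 3 days array and on 0 below, and the shares over all probe sets were 10.9% and 13%. Both Nr4a1 probe sets passed without control 1 (0.0410 and 0.0326), when 0.779% of all probe sets did. With the 2 clusters as a block they had 1.99 and 2.10 with limma adjusted p-values of 0.0786, and within cluster 2 1.67 and 1.92 with 0.149 and 0.137. The replicate block, with 0.0183 and 0.00588 for Nr4a1 and 0.0460 for Jun, called these 3 of 14, and 2.34% of all probe sets.

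A moderated F-test over the 5 groups called 0 of the 14, with the smallest limma adjusted p at 0.0889 for Junb and both Nr4a1 probe sets, while 1.66% of all probe sets passed. In order of group means, 12 hours was the highest group for Fosl1, Junb, the 4 Egr1 and the 2 Cebpb probe sets, and 5 days for Fos, Jun and Nr4a1. The 3 days group was the lowest for every probe set except 2 of Fos. Neighbours in this order mostly overlapped. The 12 hours group was apart from the next group for Fosl1, Junb, Egr1 AF023087_s_at and U75398_s_at and both Cebpb probe sets. That next group was the controls for AF023087_s_at, 1 day for U75398_s_at and 5 days for the others. Over all probe sets, the 12 hours arrays lay above all controls for 5.36%, above all 1 day arrays for 13.7% and above all 5 days arrays for 27.1%.

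Other genes of the same response were few on this array. Of 40 further immediate early genes 4 were tested, with 7 probe sets, and 0 passed against control at any time, with a median difference of -0.15 at 12 hours against -0.18 over all probe sets. Nr4a3, a nuclear receptor close to Nr4a1, had 1.76 ± 0.52 (SE, log2) at 12 hours on rc_AI176710_at with a limma adjusted p of 0.0881, but -0.46 and -1.40 on its 2 other probe sets. The same probe set had 1.51 at 1 day (0.337), and Jund, the third Jun gene, had -1.21 at 1 day (0.389). Jund signals were 17.6 to 29.2 at 1 day, under the filter level of 44.9, and 27.1 to 86.3 in controls. The Nr4a3 probe set with -0.46 was also dim, with 6.4 to 37.7 at 12 hours. Of 21 further C/EBP, CREB, ATF and partner factors 4 were tested, and 0 passed. Nfkb1, a subunit of NF-kappa B, had 0.86 (0.111) and Stat3, a cytokine-activated factor, 0.99 (0.148) at 12 hours. Crem, a CRE-binding factor on both lists, had -0.60 at 5 days (0.469), where its signals were 28.8 to 32.6 and under the filter level. Of 44 genes of the MAP kinase and CREB routes, mostly kinases, 15 were tested on 33 probe sets, with 0 past the threshold against control and a median of 0.17 at 12 hours. The calcium-dependent kinase genes Camk2d and Camk2b had 0.85 (0.0573) and -0.51 (0.0881), and Map2k1, which encodes the kinase MEK1, 0.81 (0.103), all at 12 hours.

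Of 37 genes with textbook AP-1, EGR or C/EBP sites 24 were tested on 38 probe sets. At 12 hours 1 passed, Ptgs2, the inducible prostaglandin synthase, with 2.59 ± 0.62 (SE, log2) and a limma adjusted p of 0.0475, and 0 passed at the later times against control. The list's median at 12 hours was 0.15. From 12 hours to 5 days 2 of its 38 probe sets rose and 6 fell by limma, a share near the 16.5% over all probe sets. Of 32 growth factor receptors and ligands that can induce immediate early genes 20 were tested on 43 probe sets, and at 12 hours Met, the hepatocyte growth factor receptor, rose by 1.17 and Fgfr1, a fibroblast growth factor receptor, by 0.79 (limma adjusted p 0.0467 and 0.0477), with a list median of -0.14. Of 18 heat shock and stress genes 10 were tested, and Hspd1, a mitochondrial chaperonin, rose at 12 hours by 0.77 (0.0475), again with a list median of -0.14. Of the cell type markers, 1 Glul probe set of 22 astrocyte probe sets rose at 12 hours by 0.92 (0.0439), 1 Slc1a2 probe set rose at 1 day by 1.88 (0.0151), and Syn1, 1 of 18 neuronal probe sets, fell at 12 hours by 0.71 (0.0475). That Glul probe set was the dimmest of its gene, with signals of 242.2 to 709.8, and the brighter Glul probe sets were not called. From 12 hours to 5 days 4 of the 22 astrocyte probe sets rose and 1 fell by limma, and 3 of the 18 neuronal ones rose and 1 fell. Over all probe sets 16.5% passed in this comparison. Of the other lists, the MAP kinase and CREB list had 3 higher and 3 lower of 33. The stress list had 3 higher and 1 lower of 17, and the growth factor list 2 higher and 1 lower of 43. The 6 calls at 12 hours named from these lists did not hold when arrays were left out. Each was lost without any 1 of controls 3 to 6, of the 12 hours or of the 5 days arrays, or of arrays 1 and 2 at 1 day and at 3 days. Of 18 fits without 1 array, 4 kept the call of Glul, 3 each those of Ptgs2, Met and Hspd1, and 2 each those of Fgfr1 and Syn1, with limma adjusted p-values of up to 0.160 to 0.194. Without 1 day array 3 Ptgs2, Met, Fgfr1 and Syn1 lost their calls too, and without 3 days array 3 Hspd1, Fgfr1 and Syn1. The Slc1a2 call was lost without 1 day array 1 or 2. With the 2 clusters as a block none of the 6 passed at 12 hours (limma adjusted p 0.0944 to 0.133), and Slc1a2 did (0.00498). That Slc1a2 probe set was dim, with signals of 18.2 to 152.8 and a median of 44.7, beside the filter level of 44.9.

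As a description of pattern over the 18 arrays, which share groups and clusters, the brightest probe set of each gene was set against all tested probe sets with another symbol. Fosl1 was nearest to 2 probe sets of Glul, the glutamine synthetase of astrocytes, with Pearson r of 0.899 and 0.885, and Junb was also nearest to Glul, with 0.854 and 0.822. Cebpb was nearest to Irf1, an interferon response factor, with 0.892 and to the receptor Pdgfra with 0.877, and Egr1 to Hes1, a Notch target, with 0.789 and to Irf1 with 0.767. Jun was nearest to complement C3 with 0.850 and to Glul with 0.771. Fos was nearest to Pja2, a ubiquitin ligase, with 0.840 and to the vasopressin receptor Avpr1b with 0.808. Nr4a1 was nearest to the potassium channel subunit Kcns1 with 0.822 and to the sodium pump subunit Atp1b2 with 0.795.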

How the data were processed

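Gene expression was measured on 18 rat arrays of 1322 probe sets, and the deposited table holds 1 linear signal intensity per probe set and array, scaled between arrays by the authors. Which software and scaling target they used is not given in the sources used here. The 59 control probe sets were left out. Signals under 11.3, the 10th percentile of the rest, were raised to it before log2 was taken. Probe sets above 44.9, the 30th percentile, on at least 3 of 18 arrays were kept, 1027 of 1263. All arrays entered 1 limma 3.58.1 fit in R 4.3.3 (lmFit, eBayes) with 5 groups, which left 13 residual degrees of freedom, and the residual SD had a median of 0.490. Two-sided p-values were adjusted in each of 8 comparisons separately (Benjamini-Hochberg), and 0.05 was the threshold. The procedure was tested on simulated data. Groups are called apart where their ranges do not overlap.

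The genes came from the platform annotation, which is old. The members, gene lists and tests were chosen with earlier results of these data known. All probe sets of the 7 genes were named. From each other list the probe sets past the threshold against control were named, or the 3 with the smallest p. For likeness the 2 probe sets outside the 7 genes with the highest Pearson r were named. Alternatives were other scalings, floors, filters and variance models, the 2 groups alone, the replicate number and the array clusters as blocks, fits within clusters, and leaving out arrays. The Gapdh covariate was added after seeing the data. Same-numbered arrays of 2 groups deviated together in all 3 pairs for 1 of 10 pairs of groups, with correlations of -0.600 to 0.683 in all, so the numbers were not taken as pairs.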

Additional observations from a re-analysis of the deposited data

Results flagged for a closer look

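Control 1 stood apart from the other 5 controls for Egr1 on U75398_s_at, with a signal of 729.7 against 291.2 to 410.5. Dixon's test was run on the log2 scale on the 14 sets of 6 control signals. It marked this 1, with a gap of 0.626 of the range, and chance marks about 5% of such sets. Signals that were not logged were not tested, and the outcome can differ on that scale.

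The change from 12 hours to 5 days differed from 0 by limma for 3 of the 14 probe sets, which is a test of the difference between these 2 exposure times. Nr4a1 rose by 1.52 on U17254_at and 1.57 on U17254_g_at, higher on 3 of 3 arrays than all 12 hours arrays. Egr1 on U75398_s_at had -1.13, lower on 3 of 3 arrays. The share called was near the 16.5% over all probe sets, and 26.7% of those were apart on the higher and 27.1% on the lower side. Leaving out any 1 array of these 2 times ended all 3 calls.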

How the results depend on the processing

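The number of the 14 probe sets past the threshold moved with the arrays used. At 12 hours against control it was 0, and 9 without controls 1 and 2, and 0 to 9 when each array was left out in turn. At 1 day it was 0, and 3 within cluster 2, with 0 to 3 leaving out 1 array. At 3 days it was 0, and 2 within cluster 2. At 5 days it was 0, and 1 with the replicate block, which sets only controls 1 to 3 against the other groups. From 12 hours to 1 day it was 0, and 1 without controls 1 and 2, with 0 to 1 leaving out 1 array. From 1 day to 3 days it was 0, and 1 within cluster 2. From 3 days to 5 days it was 0, and 1 with quantile normalization or a floor at the 20th percentile, 2 with median centring, log2(signal + 50), a filter at the median, trend and robust variances, the 2 groups alone or no controls 1 and 2, and 3 with the replicate block, with 0 to 2 leaving out 1 array. From 12 hours to 5 days it was 3, and 1 with no filter, 11 with the 2 groups alone, 0 with the cluster block or the Gapdh covariate and 5 without controls 1 and 2, with 0 to 6 leaving out 1 array. For the F-test it was 0, and 1 with the replicate block and 9 without controls 1 and 2, with 0 to 5 leaving out 1 array. The replicate block lost Egr1 U75398_s_at from 12 hours to 5 days (-1.13, limma adjusted p 0.0523). The cause of these moves was not tested, beyond the arrays left out or added. The 3 differences called from 12 hours to 5 days with all arrays kept their sign in every setting run, but Fos at 1 day was below 0 within cluster 2 and above 0 within cluster 1. The counts over all probe sets moved as well, so such moves were not particular to the 14. At 12 hours they were 17 as reported, 1 to 211 leaving out 1 array and 0 to 321 otherwise. In the same order they were 3, 0 to 26 and 0 to 123 at 1 day. At 3 days they were 0, 0 to 3 and 0 to 6, and at 5 days 0, 0 to 2 and 0 to 61. From 12 hours to 1 day they were 0, 0 to 24 and 0 to 22. From 1 day to 3 days they were 1, 0 to 10 and 0 to 38. From 3 days to 5 days they were 3, 0 to 12 and 0 to 24. From 12 hours to 5 days they were 169, 1 to 215 and 0 to 392. For the F-test they were 17, 1 to 114 and 7 to 219. No column gave detection calls, so signal over background could not be judged beyond the filter.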
